A study of Homo sapiens with 10 samples.

Results

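The proteasome genes of HEK293T cells, a line derived from human embryonic kidney, were described after forced expression of the kinases BRSK2 or BRSK1. Members were the protein-coding genes named POMP or with a name beginning PSMA, PSMB, PSMC, PSMD, PSME, PSMF or PSMG, which gave 50 of the 58676 genes in the count tables, 19821 of them protein-coding. They comprised 8 alpha and 11 beta subunits of the core, 9 base and 8 lid subunits of the regulatory particle, 5 activators and inhibitors, 8 assembly factors and PSMC3IP, a recombination cofactor that only carries a subunit's name. The samples were 3 libraries with BRSK2 and 3 with BRSK1 overexpressed for 24 h, 2 with hcRED, a red fluorescent protein, overexpressed for 24 h, and 2 from Mock cells, all from total RNA. The series examined whether these kinases act on NRF2, a transcription factor of the oxidative stress response. The hcRED and Mock libraries together served as the 4 controls. The labels do not state whether replicates are separate cultures; the p-values therefore cover variation among these libraries, which may be technical.

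Libraries held 16516116 to 24304302 gene counts. BRSK2 took 6.99% to 10.4% of counts in the BRSK2 libraries and 0.00735% to 0.0099% in the controls. The control level was 69.8 to 97.6 TMM-scaled CPM (a library's counts divided by its effective depth). BRSK1 took 4.72% to 6.96% of counts in the BRSK1 libraries and 0.00103% to 0.00287% in the controls (10.2 to 27.3 CPM). All 10 listed markers of HEK293 lines were detected in every library, with summed levels of 671 to 704 CPM with BRSK2, 667 to 671 CPM with BRSK1, 595 to 612 CPM with hcRED and 675 to 692 CPM in Mock. Of 11 markers of other cell types, 6 had at most 10 counts in every library and the other 5 were above 0 in all. Their summed levels were 31.6 to 40.1 CPM with BRSK2, 30.3 to 39.7 CPM with BRSK1, 37.9 to 38.0 CPM with hcRED and 42.2 to 45.5 CPM in Mock, and their part in the results was not tested.

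The proteasome degrades proteins tagged with ubiquitin. Its barrel-shaped core has outer rings of alpha subunits that gate the channel and inner rings of beta subunits, some of which cut peptide bonds. A regulatory particle caps the core: its base holds ATPases that unfold the substrate and its lid removes the ubiquitin chain. Other caps replace the regulatory particle, and dedicated chaperones build each piece. Proteasome genes are known to be transcribed together, in mammals under NFE2L1 when proteasome function falls short, and NRF2 is known to bind antioxidant response elements.

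To compare genes with each other, counts were divided by the length of the longest annotated transcript and scaled to the same total in each library (TPM). The core subunits PSMB4 and PSMA7 had the highest levels, averaging 695 TPM (642 to 757) and 658 TPM (598 to 753) over the 10 libraries, ranges that overlap. The catalytic subunits of the standard core came below these. PSMB7, with trypsin-like activity, averaged 498 TPM (450 to 559). PSMB6, with caspase-like activity, averaged 403 TPM (369 to 453). PSMB5, with chymotrypsin-like activity, averaged 339 TPM (306 to 374). In the regulatory particle the ubiquitin receptor PSMD4 averaged 390 TPM (343 to 428) and the lid scaffold PSMD3 averaged 346 TPM (307 to 394). Assembly factors ranged from POMP, the maturation factor of the core, at 179 TPM (149 to 212), to PSMD5, a base chaperone, at 0.218 TPM (0.0691 to 0.406). The order depends on the length used: with the median transcript length PSMA4, an alpha subunit, averaged 529 TPM, against 169 TPM with the longest.

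**Figure D1:**
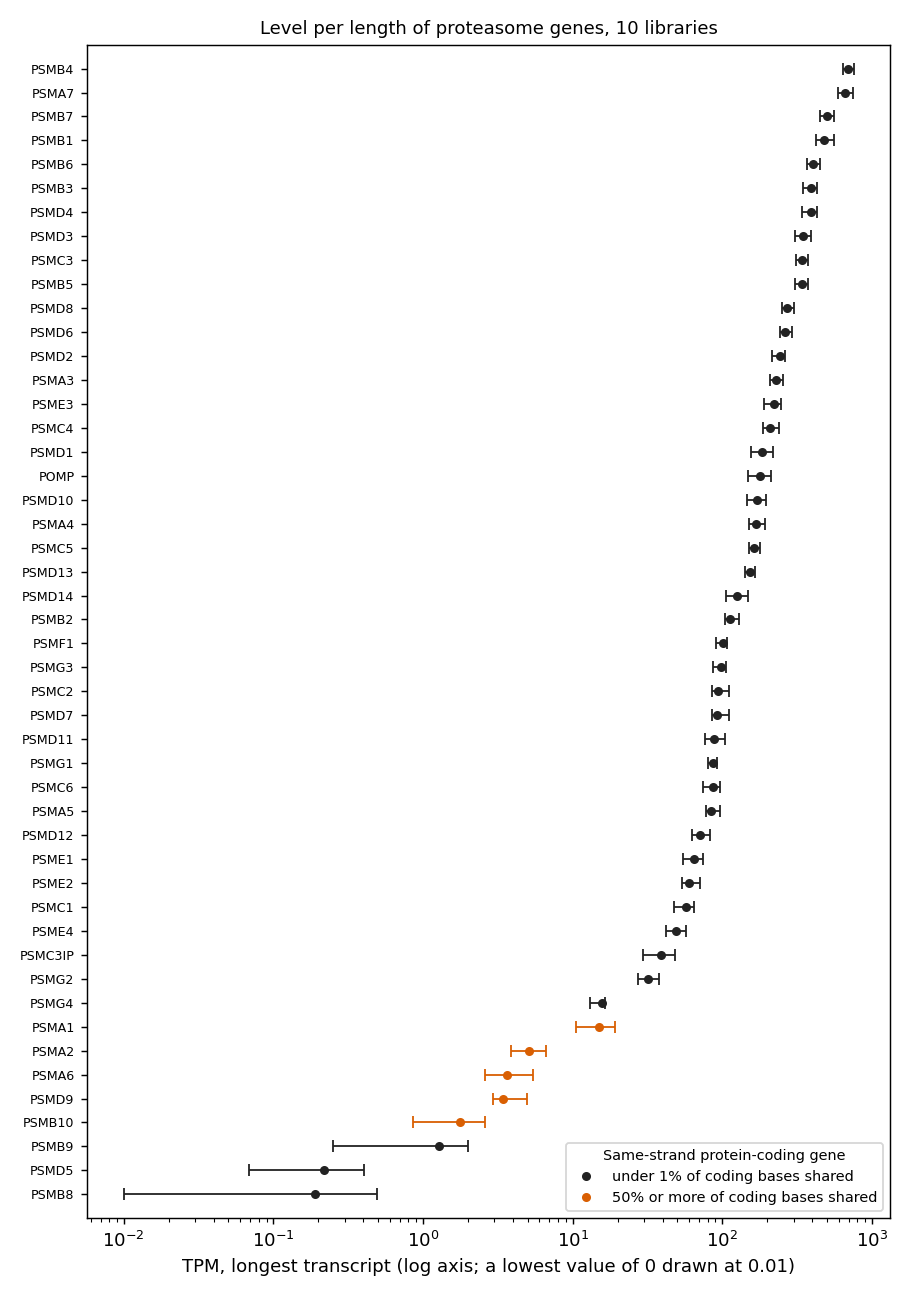
Level per length (TPM on a log axis, longest transcript) of the 48 proteasome genes with any count, as the mean (point) and the lowest to highest (bar) of 10 libraries. PSMB4 tops the order at 695 TPM. The 5 genes in orange share most of their coding bases with another gene on the same strand, and all have means at or below 14.9 TPM.

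The immunoproteasome, a core variant induced by interferon, was close to absent from the counts. PSMB8, which replaces PSMB5, had 0 to 5 counts a library and 0.0579% of the PSMB5 level in TPM (0 to 0.16%). PSMB9, which replaces PSMB6, had 2 to 13 counts and 0.314% of the PSMB6 level (0.0679% to 0.5%). PSMB10, which replaces PSMB7, stood at 0.357% of the PSMB7 level (0.154% to 0.526%), with 9 to 26 counts. The thymus subunit PSMB11 and the testis subunit PSMA8 had 0 counts in all 10 libraries, where 3 counts would correspond to 0.124 to 0.191 CPM, a limit of counting error only. PSMA8, PSMB8, PSMB11 and PSMD5, with 2 to 13 counts, did not pass the filter on low counts, and 46 members were tested.

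Several subunits that every core needs also had low counts. PSMA1 had 162 to 235, PSMA2 had 38 to 85 and PSMA6 had 22 to 46, all alpha ring subunits. In the annotation, 91.0% of the coding bases of PSMA1, 100% of those of PSMA2 and 89.7% of those of PSMA6 also lie in a second protein-coding gene on the same strand. The same holds for 60.0% of the coding bases of PSMB10 and 68.3% of those of the base chaperone PSMD9, which had 54 to 119 counts. Of the 10 members under 300 counts in every library, 5 share 50% or more of their coding bases in this way, and of the other 40 members 0 do. How reads in shared exons were counted is not given in the sources used here, so levels of these 5 genes are uncertain, and the part of this overlap in the low counts was not tested. On the opposite strand, 9 members overlap another gene over more than 10% of their exons, led by the ATPase PSMC1 with 75.8% (NRDE2). PSMD1 is among them, with 10.8% in HTR2B, which had 0 to 2 counts. The strand setting of the count is not known either.

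With BRSK2, 8 of the 46 tested members fell and 0 rose against the 4 controls, at an adjusted p below 0.05 over all genes tested (edgeR's quasi-likelihood test with Benjamini-Hochberg adjustment). Of all 16936 genes tested, 3.05% fell and 4.77% rose. At an unadjusted p below 0.05, 17 members were lower and 1 higher, where 3900 of the 16936 genes tested passed in either direction. DESeq2 called 8 members lower and 0 higher, and no share over all genes is given for it. The 8 came from each class of the complex: the core subunits PSMA4, PSMB1 and PSMB2, the base subunit PSMD1, the lid subunits PSMD11 and PSMD14, the activator PSME3 and the assembly factor POMP. Each fell by 12.1% to 19.1%. In bulk RNA, fewer cells with a transcript and less of it per cell cannot be told apart.

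POMP (ENSG00000132963, chr13:28659104-28678925, plus strand), which helps precursor cores mature and is degraded by them, had 91.6, 100.2 and 89.1 CPM in the BRSK2 libraries, against 120.0 and 121 CPM with hcRED and 115 and 108 CPM in Mock. Every BRSK2 library was below every control. The log2 fold change was -0.31 (SE 0.06, adjusted p = 0.00245). PSME3 (ENSG00000131467, chr17:42824385-42843758, plus strand), the nuclear activator that opens the core without ubiquitin, had 289.8, 272 and 266 CPM with BRSK2, against 329 and 329 CPM with hcRED and 342 and 339 CPM in Mock. The libraries again did not overlap, and the log2 fold change was -0.28 (SE 0.06, adjusted p = 0.00315). These were the members with the smallest adjusted p. Both passed in all 24 alternative analyses at this threshold, with adjusted p up to 0.041 for POMP and 0.0482 for PSME3, whereas PSMD11 passed in 20, PSMB2 and PSMD1 in 15, PSMB1 in 11, and PSMA4 and PSMD14 in 10.

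In the lid, PSMD11 (ENSG00000108671, chr17:32444261-32483318, plus strand), a scaffold subunit, had 142, 133 and 139 CPM with BRSK2, against 162 and 169 CPM with hcRED and 154 and 154 CPM in Mock, a log2 fold change of -0.21 (SE 0.06, adjusted p = 0.0184). PSMD14 (ENSG00000115233, chr2:161308038-161411717, plus strand), the deubiquitinase of the lid, had 96.0, 88.3 and 97.2 CPM with BRSK2, against 109.5 and 115 CPM with hcRED and 104 and 102 CPM in Mock, a log2 fold change of -0.20 (SE 0.06, adjusted p = 0.0475). Both were lower in all 3 BRSK2 libraries than in any control. PSMD1 (ENSG00000173692, chr2:231056864-231172827, plus strand), the large scaffold of the base, had 269, 221 and 216 CPM with BRSK2, against 274 and 289 CPM with hcRED and 263 and 286 CPM in Mock, a log2 fold change of -0.24 (SE 0.07, adjusted p = 0.0417). Here BRSK2 replicate 1 was within the range of the controls.

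In the core, PSMB2 (ENSG00000126067, chr1:35599544-35641844, minus strand), a non-catalytic beta subunit, had 181, 186 and 185 CPM with BRSK2, against 207 and 217 CPM with hcRED and 209 and 209 CPM in Mock, a log2 fold change of -0.19 (SE 0.05, adjusted p = 0.0299). PSMB1 (ENSG00000008018, chr6:170535117-170553341, minus strand), another non-catalytic beta subunit, had 161, 179 and 165 CPM with BRSK2, against 195 and 206 CPM with hcRED and 185 and 185 CPM in Mock, a log2 fold change of -0.19 (SE 0.06, adjusted p = 0.0427). PSMA4 (ENSG00000041357, chr15:78540405-78552419, plus strand), of the alpha ring, had 276, 302 and 280.2 CPM with BRSK2, against 342 and 333 CPM with hcRED and 321 and 306 CPM in Mock, a log2 fold change of -0.19 (SE 0.06, adjusted p = 0.0449). None of these 3 genes overlapped between BRSK2 and control libraries. The catalytic subunits did not pass: the log2 fold change was -0.12 for PSMB5 (adjusted p = 0.202), -0.11 for PSMB6 (adjusted p = 0.284) and -0.10 for PSMB7 (adjusted p = 0.334).

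The members not called also lay mostly below 0. Over the 46 tested members the median log2 fold change was -0.11, with 41 negative and 5 positive, against a median of 0.002 and 49.5% negative over all genes tested. All BRSK2 libraries were below all controls for 12 members, where 8.2% of all genes tested showed this. Abundant genes as a class leaned the same way: of the 4540 genes at 50 CPM or more, 6.12% fell, 59.7% had a negative fold change and the median was -0.03. Of the 35 members in that range 22.9% fell, 34 were negative and the median was -0.12. The 5 positive values were those of PSMD4, with 210.3, 230.5 and 232 CPM with BRSK2 against 192 to 206 CPM in the controls (log2 fold change 0.16, adjusted p = 0.0972), the assembly chaperone PSMG2 (0.15, adjusted p = 0.385), the alpha subunits PSMA1 (0.28, adjusted p = 0.25) and PSMA6 (0.08, adjusted p = 0.923), and PSMC3IP (0.17, adjusted p = 0.333). The sign of PSMA6 turned with library totals alone (-0.03), and that of PSMC3IP against hcRED alone (-0.03). PSMB9 had the lowest fold change, -0.49 (SE 0.55, adjusted p = 0.652), from 2 to 13 counts. Lid subunits were negative in 8 of 8 and beta subunits in 9 of 9 tested, and alpha subunits in 5 of 7. The alpha exceptions, PSMA1 and PSMA6, are among the 5 genes of uncertain level, as are PSMA2 and PSMB10, which were negative. PSMB4 had the value nearest 0 of the beta subunits, -0.07 (adjusted p = 0.503), as did PSMD6 of the lid, -0.03 (adjusted p = 0.818), and the activator subunit PSME2, -0.01 (adjusted p = 0.974). Assembly factors other than POMP did not pass: PSMG1 had -0.05 (adjusted p = 0.659), PSMG3 -0.04 (adjusted p = 0.77), PSMG4 -0.02 (adjusted p = 0.927) and PSMD10 -0.10 (adjusted p = 0.353), while PSMD9 had -0.29 (SE 0.19, adjusted p = 0.384).

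The number of calls changed with the libraries used. Leaving out BRSK2 replicate 1 gave 10 calls, of which 2 were higher with BRSK2, PSMD4 (log2 fold change 0.20, adjusted p = 0.0205) and PSMC3IP (0.30, adjusted p = 0.0439). Leaving out BRSK2 replicate 2 left 3 calls, leaving out BRSK2 replicate 3 left 2, and leaving out BRSK1 replicate 1 or 3 left 5. The number was 3 without hcRED replicate 1, 2 without hcRED replicate 3, 4 without Mock replicate 2 and 3 without Mock replicate 3. With the hcRED libraries as the sole controls 7 members passed, all lower, and with Mock as the sole control 2, POMP and PSME3. PSMD4 was also higher with GC content and length trends removed (log2 fold change 0.15, adjusted p = 0.0375) and with the replicate number as a block (0.16, adjusted p = 0.039). The authors' deposited table for BRSK2 lists 723 genes and holds those same 2 members, PSME3 with a log2 fold change of -0.27 (adjusted p = 0.0109) and POMP with -0.3 (adjusted p = 0.0178).

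**Figure D2:**
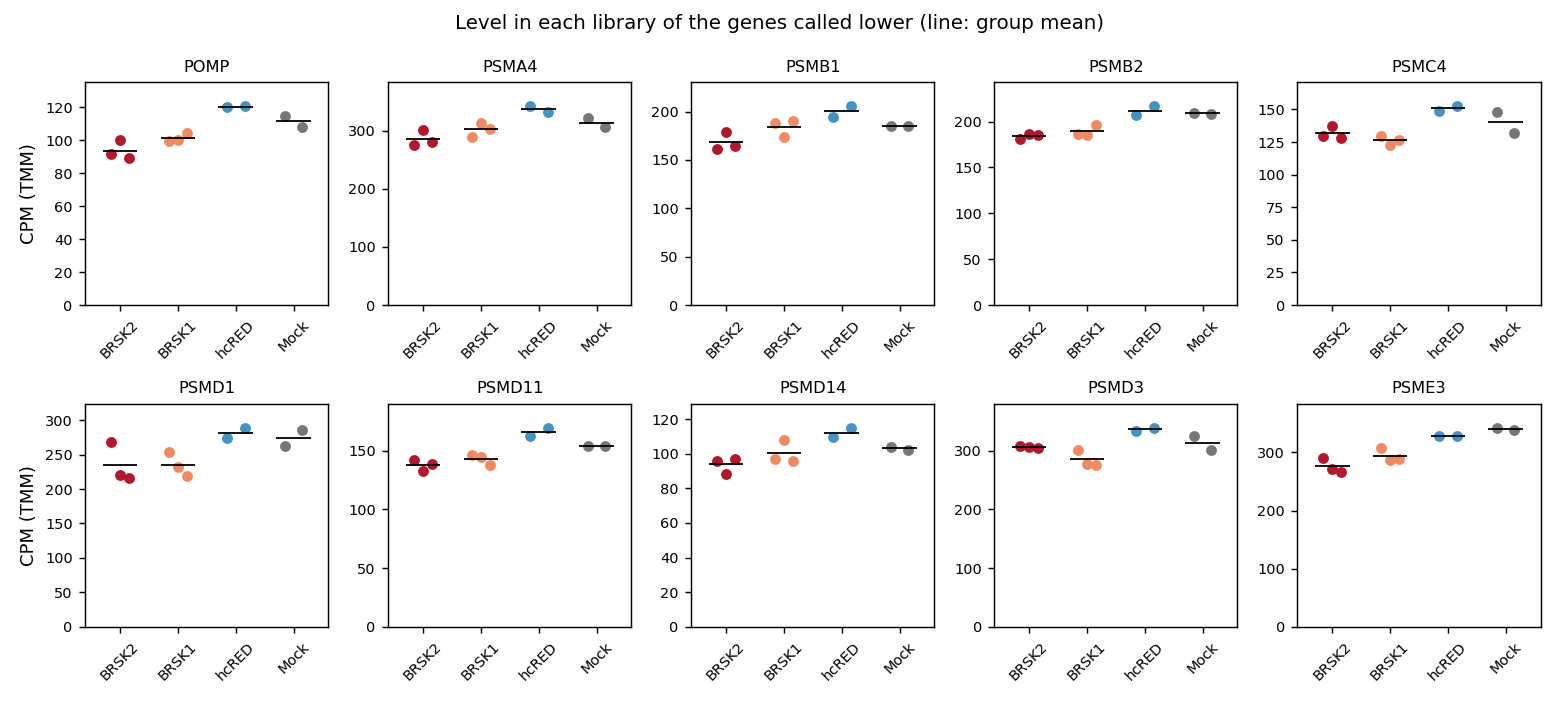
Level in each library (CPM, TMM-scaled, axes from 0) of the 10 proteasome genes called lower with either kinase, with a line at each group's mean. POMP runs from 89.1 to 100.2 CPM with BRSK2, against 108 to 121 CPM in the controls.

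With BRSK1, 4 members fell and 0 rose against the same 4 controls (edgeR), where 2.66% of all genes tested fell and 3.77% rose. At an unadjusted p below 0.05, 17 members were lower and 2 higher, where 3693 of the 16936 genes tested passed in either direction. DESeq2 called 8 members lower and 1 higher, PSMD4, again without a share over all genes. The 4 members were the base ATPase PSMC4, the scaffolds PSMD1 and PSMD3 and the activator PSME3. The contrast shares its control libraries with that of BRSK2, so the pair of results is not independent.

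PSMC4 (ENSG00000013275, chr19:39971005-39981441, plus strand) had 129.5, 123 and 127 CPM with BRSK1, against 149 and 152 CPM with hcRED and 148 and 132 CPM in Mock, a log2 fold change of -0.20 (SE 0.06, adjusted p = 0.0392). PSMD1 had 254, 232 and 219 CPM with BRSK1, against 263 to 289 CPM in the controls, a log2 fold change of -0.24 (SE 0.07, adjusted p = 0.0439). Both were below every control in all 3 BRSK1 libraries. PSME3 had 308, 286 and 289 CPM with BRSK1, against 329 to 342 CPM in the controls, a log2 fold change of -0.19 (SE 0.06, adjusted p = 0.0455). PSMD3 (ENSG00000108344, chr17:39980797-39997960, plus strand) had 302, 278 and 276 CPM with BRSK1, against 334 and 339 CPM with hcRED and 325 and 300.2 CPM in Mock, a log2 fold change of -0.19 (SE 0.06, adjusted p = 0.0482). PSME3 was below every control, while PSMD3 in BRSK1 replicate 1 was above Mock replicate 3. POMP had 99.4, 100.2 and 104 CPM with BRSK1, against 108 to 121 CPM in the controls, without overlap, and just missed the threshold (log2 fold change -0.19, adjusted p = 0.0502).

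The median over the 46 members was -0.11 with BRSK1, with 39 negative and 7 positive, against 0.003 and 49.4% negative over all genes tested. For 16 members all BRSK1 libraries were below all controls, where 8.43% of all genes tested showed this. At 50 CPM or more, 11.4% of the 35 members fell and 31 were negative with a median of -0.11, against 6.15% of the 4540 genes, 60.6% negative and a median of -0.04. PSMD4 was the highest, with 218, 238 and 229.8 CPM with BRSK1 against 192 to 206 CPM in the controls (log2 fold change 0.18, adjusted p = 0.0582), and passed in 6 of 24 alternatives. The interferon-linked activator subunit PSME1 had 0.15 (adjusted p = 0.306), its partner PSME2 had -0.12 (adjusted p = 0.467), and the base chaperone PSMD10 had 0.13 (adjusted p = 0.181). PSMB9 had the lowest value, -1.19 (SE 0.57, adjusted p = 0.226), again from 2 to 13 counts. The alpha subunits ran from -0.16 (PSMA2, adjusted p = 0.686) to -0.04 (PSMA6, adjusted p = 0.963), and PSMB4 was at 0.02 (adjusted p = 0.891) and PSMD6 at -0.01 (adjusted p = 0.947). Among catalytic subunits the log2 fold change was -0.12 for PSMB5 (adjusted p = 0.237), -0.15 for PSMB6 (adjusted p = 0.126), -0.18 for PSMB7 (adjusted p = 0.0896) and -0.21 for PSMB10 (adjusted p = 0.824). The other assembly factors had -0.09 (PSMG1, adjusted p = 0.388), 0.06 (PSMG2, adjusted p = 0.758), -0.02 (PSMG3, adjusted p = 0.926), -0.11 (PSMG4, adjusted p = 0.45) and -0.33 (PSMD9, adjusted p = 0.3).

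The calls changed with the libraries used, and of 24 alternative analyses PSMD1 passed in 15, PSMC4 in 14, and PSME3 and PSMD3 in 11. No member passed without BRSK1 replicate 2, BRSK1 replicate 3, hcRED replicate 1 or hcRED replicate 3, and 1, PSMD1, passed without Mock replicate 2. Without BRSK2 replicate 2 or BRSK2 replicate 3, 2 passed, PSMC4 and PSMD1. Without Mock replicate 3 the 2 that passed were PSMC4 and PSMB7, which was not called with all libraries. Without BRSK2 replicate 1, 13 members passed, 12 lower and PSMD4 higher. The authors' deposited table for BRSK1 lists 879 genes, among them PSMD1 with a log2 fold change of -0.24 (adjusted p = 0.0288) and PSME3 with -0.18 (adjusted p = 0.0467).

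**Figure D3:**
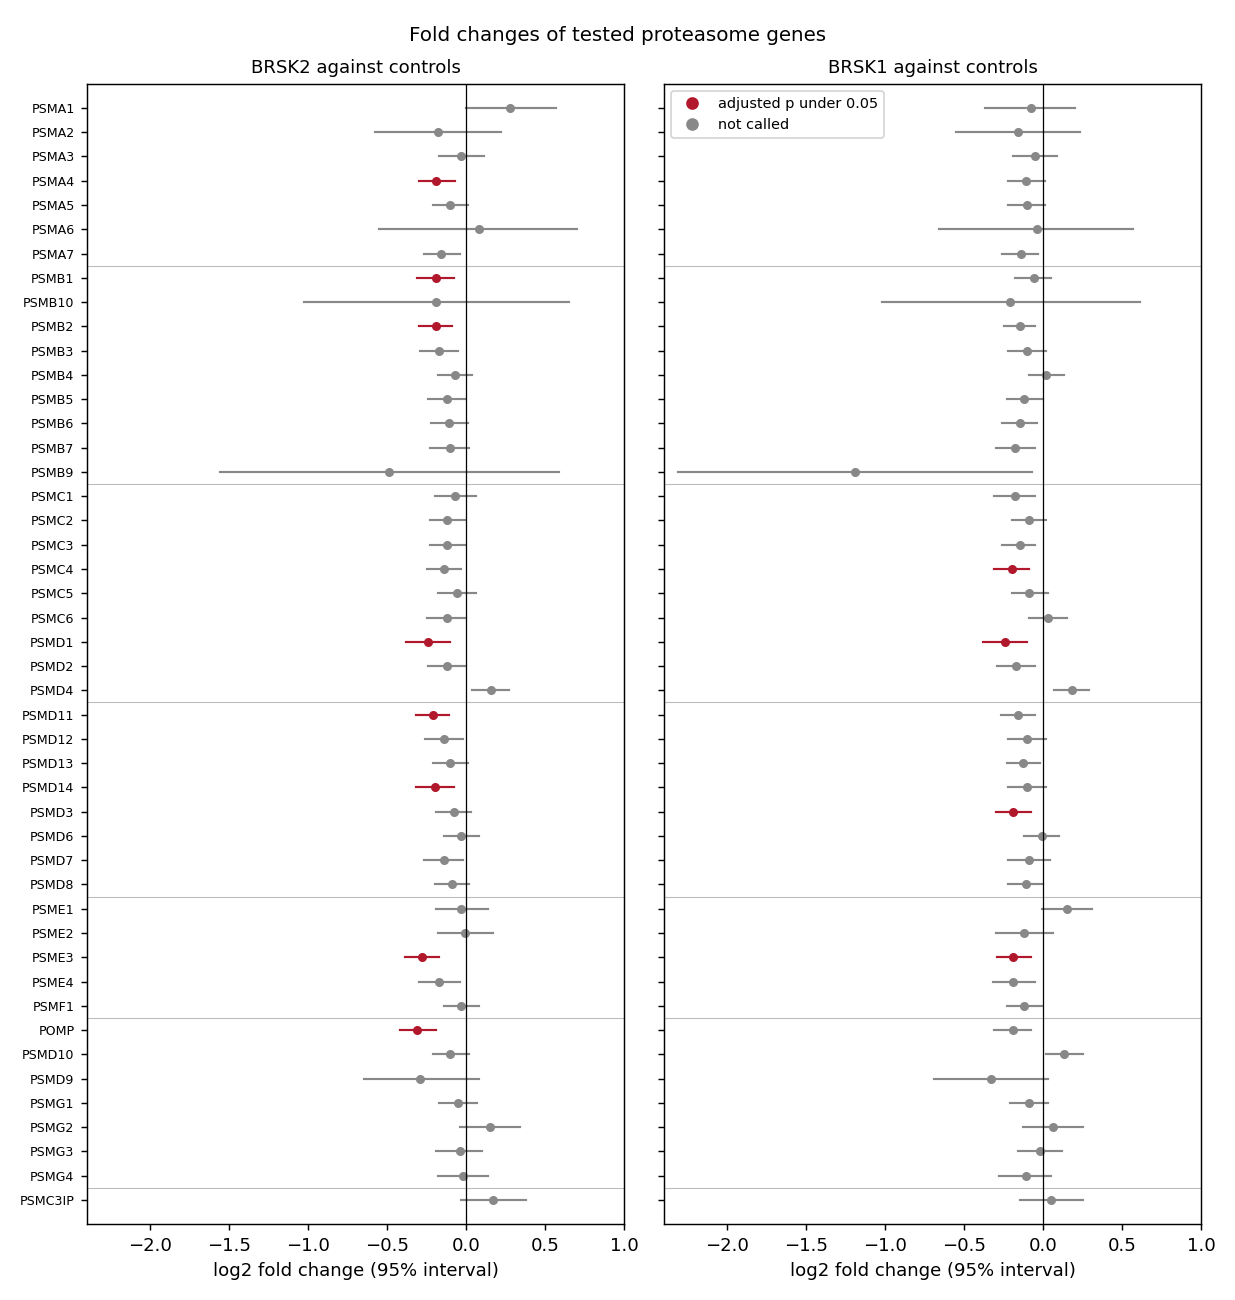
Log2 fold change with its 95% interval of the 46 tested proteasome genes, BRSK2 against controls on the left and BRSK1 against controls on the right, with lines between core alpha, core beta, base, lid, activators and inhibitor, assembly and PSMC3IP. The 8 members called with BRSK2 and the 4 called with BRSK1 are in red and all lie below 0.

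Summed by class, the kinase libraries averaged below the controls in all 6 classes of the complex and its factors. All members together had 5798 ± 109 CPM with BRSK2 (SD, n = 3), 5848 ± 79 CPM with BRSK1 (n = 3), 6422 ± 42 CPM with hcRED (n = 2) and 6205 ± 150 CPM in Mock (n = 2), which is -8.2% with BRSK2 and -7.4% with BRSK1 against the mean of the controls. The 6 kinase libraries spanned 5679 to 5922 CPM and the 4 controls 6099 to 6452 CPM, without overlap. These sums are descriptions with no test, and abundant subunits weigh most in them.

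The alpha subunits summed to 774 ± 33 CPM with BRSK2 and 790 ± 13 CPM with BRSK1, against 876 ± 42 CPM with hcRED and 832 ± 40 CPM in Mock. The beta subunits summed to 1248 ± 51 CPM with BRSK2 and 1279 ± 32 CPM with BRSK1, against 1389 ± 1 CPM with hcRED and 1347 ± 40 CPM in Mock. The base summed to 1538 ± 59 CPM with BRSK2 and 1521 ± 45 CPM with BRSK1, against 1668 ± 4 CPM with hcRED and 1623 ± 23 CPM in Mock. The alpha sums of kinase and control libraries overlapped, while those of beta and base did not. The lid summed to 1175 ± 4 CPM with BRSK2 and 1169 ± 41 CPM with BRSK1, against 1318 ± 18 CPM with hcRED and 1225 ± 33 CPM in Mock. Activators and inhibitor summed to 657 ± 30 CPM with BRSK2 and 664 ± 15 CPM with BRSK1, against 723 ± 17 CPM with hcRED and 752 ± 5 CPM in Mock. Assembly factors summed to 383 ± 20 CPM with BRSK2 and 403 ± 7 CPM with BRSK1, against 424 ± 6 CPM with hcRED and 407 ± 17 CPM in Mock. Against the mean of the controls the summed activators stood lowest, at -11.0% with BRSK2 and -10.0% with BRSK1. The assembly factors were at -7.9% with BRSK2 and -2.9% with BRSK1. By median log2 fold change the activators with BRSK2 were instead nearest 0 of the 6 classes, at -0.03. PSME3 had -0.28 and PSME4 -0.17 there, while PSME1 had -0.03, PSME2 -0.01 and PSMF1 -0.03. With BRSK1 the activators' median was -0.12. Libraries did not overlap for lid and activators and did for assembly factors.

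**Figure D4:**
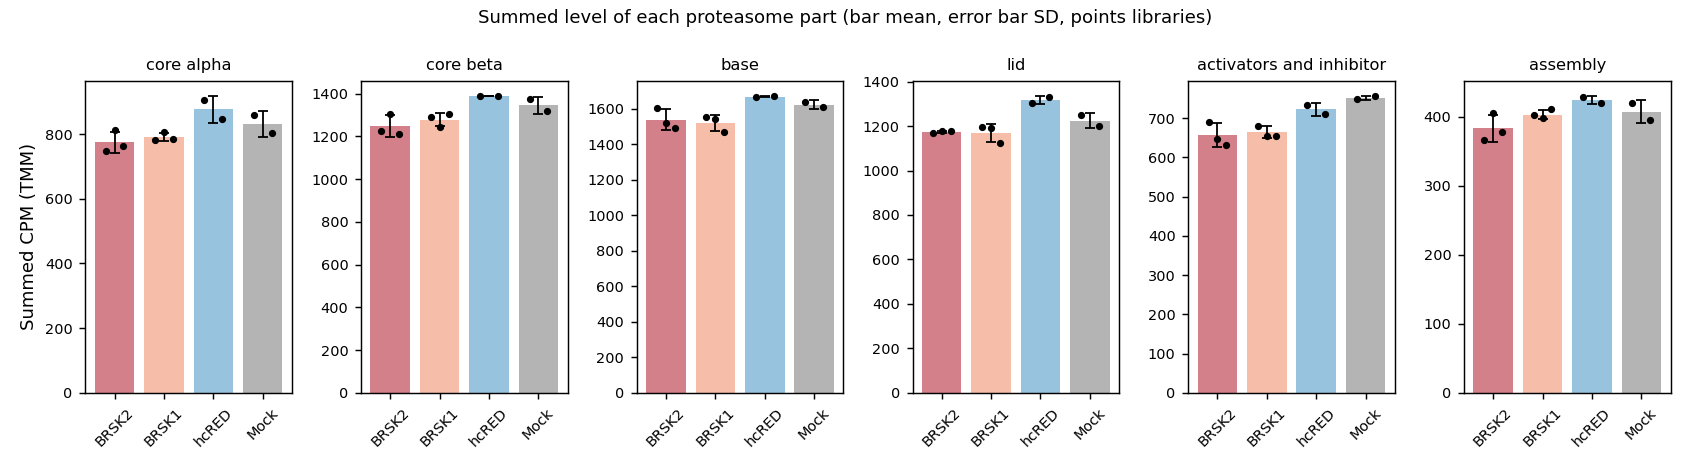
Summed level (CPM, TMM-scaled) of 6 classes of proteasome genes in BRSK2, BRSK1, hcRED and Mock libraries, with bars for means, error bars for SD and points for single libraries. The lid sums run from 1171 to 1178 CPM with BRSK2, against 1202 to 1332 CPM in the controls.

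Between the kinases, 0 of 46 members differed at an adjusted p below 0.05 (edgeR), where 0.348% of all genes tested did. An unadjusted p below 0.05 was found for 4 of the 46 members, against 2093 of the 16936 genes tested. DESeq2 called 1 member. That member was PSMD10, a base chaperone also known as an oncoprotein, with 93.2, 108 and 99.8 CPM with BRSK2, against 119, 118 and 116 CPM with BRSK1. Its log2 fold change was -0.23 (95% interval -0.36 to -0.11, edgeR adjusted p = 0.126), against an adjusted p of 0.0346 in DESeq2. Its libraries did not overlap, as was so for 2 of the 46 members lower and 2 higher with BRSK2. No share over all genes is given for this, so the lack of overlap cannot be weighed. POMP, which passed with BRSK2 and not with BRSK1, did not pass in this direct test (log2 fold change -0.11, 95% interval -0.24 to 0.01, adjusted p = 0.481). PSMC4 and PSMD3, which passed with BRSK1 and not with BRSK2, had log2 fold changes of 0.06 (95% interval -0.06 to 0.18, adjusted p = 0.759) and 0.10 (95% interval -0.02 to 0.22, adjusted p = 0.504). PSMD1, lower with both kinases, was at 0.00 (95% interval -0.15 to 0.15). Base subunits ran from -0.15 (PSMC6, an ATPase) to 0.12 (PSMC1), and lid subunits from -0.10 (PSMD14) to 0.10 (PSMD3). The highest value was that of PSMB9, 0.70, at its few counts, followed by PSMA1 with 0.36 (adjusted p = 0.329).

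The control groups were also compared with each other. Between hcRED and Mock 0 of 46 members passed (edgeR), where 0.0295% of all genes tested did, and DESeq2 called 0. An unadjusted p below 0.05 was found for 3 of the 46 members, against 1517 of the 16936 genes tested. The median log2 fold change was 0.07, with 32 members positive and 14 negative, and for 19 members both hcRED libraries were above both Mock libraries, where 20.0% of all genes tested showed this. PSMC3IP was highest, with 22.7 and 27.2 CPM with hcRED against 20.1 and 17.4 CPM in Mock (0.41, adjusted p = 0.337). The ATPase PSMC2 had 131 and 134 CPM with hcRED against 118 and 109 CPM in Mock (0.23, adjusted p = 0.334). PSMB10 was lowest at -0.60, from 9 to 26 counts over all libraries. Lid subunits ran from -0.01 (PSMD13) to 0.16 (PSMD6), and activators from -0.10 (PSME4, a nuclear activator) to 0.09 (PSME2). With BRSK2 the members' median was -0.14 against hcRED alone and -0.08 against Mock alone, and with BRSK1 it was -0.15 against hcRED alone and -0.10 against Mock alone.

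The promoters were searched for 7 short motifs. Those of POMP and PSME3 are shown because these members passed in every alternative with BRSK2, and those of PSMD1 and PSMA4 as called members with an antioxidant response element core. RefSeq windows of GRCh38.p14, from 250 bases before to 50 bases after a transcript start, were matched for 44 members, which have 54 windows; PSMB7, PSMG3, PSMB6, PSMA7, PSMB1 and PSMD4 have no sequence here. All 4 windows are on the plus strand, and capitals mark the antioxidant response element core TGACNNNGC, the NF-Y box CCAAT and the ETS site CCGGAAG on either strand. The windows are chr13:28658880-28659179 for POMP, chr17:42833147-42833446 for PSME3, chr2:231056617-231056916 for PSMD1 and chr15:78540536-78540835 for PSMA4, the last being 1 of 3 windows of that gene. The PSME3 window lies inside the gene as the deposited table places it, since RefSeq starts its transcript further downstream. The PSMA4 window also lies inside its gene and was picked because it holds the element core. The other windows of PSMA4 hold neither the element core nor the NF-Y box.
POMP: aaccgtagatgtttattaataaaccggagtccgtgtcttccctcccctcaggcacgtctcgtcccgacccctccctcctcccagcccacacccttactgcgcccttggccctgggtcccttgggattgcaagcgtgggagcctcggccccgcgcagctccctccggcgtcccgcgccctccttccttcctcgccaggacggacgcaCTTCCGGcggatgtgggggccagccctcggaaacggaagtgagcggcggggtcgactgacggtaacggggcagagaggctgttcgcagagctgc
PSME3: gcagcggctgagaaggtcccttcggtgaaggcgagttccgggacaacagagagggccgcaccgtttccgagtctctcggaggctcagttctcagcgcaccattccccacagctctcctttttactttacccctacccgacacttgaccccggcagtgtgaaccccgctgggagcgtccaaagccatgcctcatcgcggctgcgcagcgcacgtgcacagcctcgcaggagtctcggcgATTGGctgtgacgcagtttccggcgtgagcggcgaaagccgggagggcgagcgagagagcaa
PSMD1: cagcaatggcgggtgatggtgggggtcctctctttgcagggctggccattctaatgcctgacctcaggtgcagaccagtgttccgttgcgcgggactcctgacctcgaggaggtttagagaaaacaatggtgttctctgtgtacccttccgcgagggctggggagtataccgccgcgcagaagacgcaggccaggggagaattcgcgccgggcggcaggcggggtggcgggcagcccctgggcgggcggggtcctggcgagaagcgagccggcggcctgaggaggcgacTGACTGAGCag
PSMA4: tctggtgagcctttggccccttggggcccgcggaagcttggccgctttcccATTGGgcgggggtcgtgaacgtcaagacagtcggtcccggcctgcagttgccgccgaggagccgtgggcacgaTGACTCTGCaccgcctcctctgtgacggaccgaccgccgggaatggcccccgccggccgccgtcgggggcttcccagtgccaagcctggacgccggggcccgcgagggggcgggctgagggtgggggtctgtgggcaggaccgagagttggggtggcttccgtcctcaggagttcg

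The POMP window holds an ETS site on the minus strand and the PSME3 window an NF-Y box on the minus strand close to the start. The PSMD1 window holds an antioxidant response element core after the start. The PSMA4 window holds one with an NF-Y box, upstream of the start of that window's transcript but inside the gene. The element core was in 27.8% of the members' windows, against 13.8% of the 22198 windows of protein-coding genes. It occurred in 15 of the 44 members with a window. Among these were 4 of the 9 called members with a window, PSMA4, PSMC4, PSMD1 and PSMD3. The ETS site was in 33.3% of the members' windows against 12.8% of protein-coding windows, the NF-Y box in 40.7% against 34.7%, and the GC box GGGCGG in 68.5% against 56.3%. Over all 35116 windows these shares were 13.3% for the element core, 10.3% for the ETS site, 34.6% for the NF-Y box and 45% for the GC box. The AP-1 site TGAGTCA was in 5.56% of the members' windows against 4.01% of protein-coding windows, and on its other strand, followed by GC, it also reads as an element core. The E box CACGTG was in 5.56% against 8.34%, and the cyclic AMP element TGACGTCA in 0% against 2.26%. Motifs were searched on both strands. Of the 9 called members with a window, 5 had the NF-Y box, 5 the GC box, 2 the ETS site and 1 the E box. Among all 44 members with a window, 21 had the NF-Y box, 30 the GC box, 17 the ETS site and 3 the E box. The AP-1 site and the cyclic AMP element were each in 0 of them. These are matches of letters, with no measure of binding.

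Further genes that work with the proteasome were read against the same shares over all genes tested, 3.05% lower with BRSK2 and 2.66% lower with BRSK1. Without adjustment, 3900 of the 16936 genes with BRSK2 and 3693 with BRSK1 had p below 0.05 in either direction (edgeR). Of 9 proteasome parts and partners outside the naming rule, 1 fell with BRSK2 and 0 with BRSK1 (median log2 fold change -0.05 and -0.04). The gene was USP14, a deubiquitinase of the regulatory particle, with 88.1 to 93.2 CPM with BRSK2 against 99.3 to 114 CPM in the controls, without overlap (log2 fold change -0.22, adjusted p = 0.0276). DESeq2 made the same number of calls, and at an unadjusted p below 0.05, 1 gene was lower with BRSK2 and 1 was higher with BRSK1. Of 18 genes of ubiquitin supply and shuttling, 1 fell with BRSK2 and 2 with BRSK1 (median log2 fold change -0.05 with BRSK2 and -0.08 with BRSK1, with 11 and 16 of them negative). At an unadjusted p below 0.05, 5 were lower and 1 higher with BRSK2 and 7 were lower with BRSK1, and DESeq2 called 3 lower with BRSK2 and 2 lower with BRSK1. UBQLN2, which carries ubiquitinated proteins to the proteasome, had 55.4 to 69.9 CPM with BRSK2 and 58.8 to 66.4 CPM with BRSK1, against 77.0 to 83.6 CPM in the controls, without overlap. Its log2 fold change was -0.35 with either kinase (adjusted p = 0.0044 with BRSK2 and 0.00641 with BRSK1). UFD1, which helps VCP extract ubiquitinated proteins, had 61.5 to 67.9 CPM with BRSK1 against 68.8 to 82.2 CPM in the controls (log2 fold change -0.23, adjusted p = 0.0351). The libraries did not overlap. USP14 and UFD1 each passed in 17 of 24 alternatives. USP14 did not pass without BRSK2 replicate 2 or 3, hcRED replicate 1 or 3, or Mock replicate 3, and UFD1 did not pass without BRSK1 replicate 1 or 3, hcRED replicate 1 or Mock replicate 2. UBQLN2 passed in 23 of 24 with each kinase, missing with BRSK2 without BRSK2 replicate 2 (adjusted p = 0.0528) and with BRSK1 against hcRED alone (adjusted p = 0.0709).

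Of 14 transcription factors of proteasome genes and proteins that process them, 13 were tested and 0 passed in edgeR with either kinase (median log2 fold change 0.02 with BRSK2 and 0.01 with BRSK1). At an unadjusted p below 0.05, 1 was higher and 1 lower with BRSK2 and 1 was lower with BRSK1, and DESeq2 called 0 with either. NFE2L1 had a mean of 204 CPM with BRSK2 and 187 CPM with BRSK1, against 192 CPM in the controls, and its log2 fold changes were 0.08 (adjusted p = 0.421) and -0.04 (adjusted p = 0.713). NFE2L2, which encodes NRF2, had a mean of 36.7 CPM with BRSK2 and 38.3 CPM with BRSK1, against 36.6 CPM in the controls (log2 fold change 0.02, adjusted p = 0.932, and 0.08, adjusted p = 0.59). Its controls differed in mean, 41.5 CPM with hcRED against 31.7 CPM in Mock (log2 fold change 0.39, adjusted p = 0.201, both hcRED libraries above both Mock libraries). Against hcRED alone its log2 fold change was -0.18 with BRSK2 and -0.11 with BRSK1, so its direction depends on the control. That of NFE2L1 with BRSK2 was -0.02 with library totals alone. Both were named for their role and not by the size of their change, and they count transcripts, not protein. Of 13 antigen processing genes that interferon induces with the immunoproteasome, 0 passed in edgeR or DESeq2 (median log2 fold change -0.10 with BRSK2 and -0.04 with BRSK1). An unadjusted p below 0.05 was found for 4 with BRSK2, 2 higher and 2 lower, and for 0 with BRSK1. Over all 16936 genes tested, 3900 with BRSK2 and 3693 with BRSK1 had such a p.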

How the data were processed

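RNA from 10 HEK293T libraries was analysed from 2 deposited tables of raw read counts per gene, which share the 4 control libraries (0 control values differed) and were joined on gene ID (0 unused count columns). The submitters' processing notes name STAR, edgeR, limma and hg38, without versions. The read counter, its strand setting, its rule for shared reads and the annotation release are not stated there or in the labels. The authors' deposited log2 CPM tables (correlation with log2 CPM from the counts 0.999 to 0.9998) served as a check, and the deposited tables of limma results gave the authors' log2 fold changes and adjusted p-values. The score columns that the authors deposited (limma's t and B) were not used. Gene lengths in the deposited tables equalled the GENCODE 29 exon union for 48 of 50 members, and coordinates (hg38) did for 50.

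Counts were tested with edgeR 4.0.16 (R 4.3.3): low-count filter (minimum count 10, total 15), TMM, 4 group means over all 10 libraries, glmQLFit and glmQLFTest with robust estimation, and Benjamini-Hochberg adjustment over 16936 genes. The biological coefficient of variation was 8.1%. Kinases were compared with the mean of hcRED and Mock. The procedure was run on simulated data with changes larger than those of the called members, so it does not show how changes of their size are detected. Transcript lengths, overlaps and coding bases came from GENCODE 29. Members and lists were chosen with earlier results of these data known. Named genes were the called members, catalytic subunits, assembly factors, members failing the filter, class extremes and called genes of the lists; others were chosen after their values were seen. Alternatives were DESeq2 1.42.0, limma-voom (3.58.1), other scalings, filters, controls and designs, and leaving out each library. Intervals for fold changes are at 95% (normal approximation from the SE), and the limit from 3 counts covers counting error only. Figures were drawn with matplotlib 3.10.9.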

Additional observations from a re-analysis of the deposited data

How the results depend on the processing

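The 10 members called with either kinase, the standard catalytic subunits, PSMD4, UBQLN2, USP14 (BRSK2) and UFD1 (BRSK1) kept their direction against the controls under every alternative run. With BRSK2 against controls, 8 members passed; the number was 27 with library totals alone, which shifts the median of all genes by -0.102 on the log2 scale, 4 without robust estimation, 4 with only the groups compared, 2 against Mock alone, 5 with all 4 controls as 1 group, 2 at an adjusted p below 0.01, and 2 to 10 without a single library. With BRSK1 against controls, 4 passed; the number was 10 with library totals alone, 1 with no filter, 9 with DESeq2, 1 without robust estimation, 11 with GC content and length trends removed, 7 with only the groups compared, 0 against hcRED alone, 0 against Mock alone, 0 with all 4 controls as 1 group, 0 at an adjusted p below 0.01, and 0 to 13 without a single library. Between the kinases, where 0 passed, 1 did with library totals alone and 1 with DESeq2, PSMD10 in both. The cause of these changes was not tested.

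Deviations from the group means correlated at -0.051 to 0.161 between same-numbered libraries of different groups and at -0.14 to 0.1 between differently numbered ones. With 2 or 3 libraries a group these values cannot decide whether the numbers pair the samples, and the labels do not say. With the replicate number as a block, 11 members passed with BRSK2 (10 lower), 14 with BRSK1 (13 lower), 1 between the kinases (PSMD10) and 1 between hcRED and Mock (PSMC3IP, higher).

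Of 80 fold changes of named genes recomputed under the alternatives, 19 turned sign in some alternative, each with an adjusted p of 0.335 or more in it. With library totals alone they were NFE2L1 (-0.02), NFE2L2 (-0.09) and PSMA6 (-0.03) with BRSK2, PSMB4 (-0.02) with BRSK1, PSMC4 (-0.01) and PSMD1 (-0.07) between the kinases, and PSMD13 (0.04) between hcRED and Mock. Against hcRED alone they were NFE2L2 (-0.18), PSMC3IP (-0.03) and PSMG4 (0.00) with BRSK2, and NFE2L2 (-0.11), PSMB10 (0.10) and PSMB4 (-0.02) with BRSK1. Against Mock alone they were PSMD6 (0.05), PSME2 (0.04) and PSMG3 (0.00) with BRSK2, and PSMD6 (0.07) and PSMG3 (0.03) with BRSK1. With GC content and length trends removed they were POMP between the kinases (0.05), PSMD6 with BRSK2 (0.00) and PSMG3 with BRSK1 (0.00). PSMD1 between the kinases stayed at 0.00 with the kinases left out of the scaling, with no filter, with limma-voom and with the replicate block, which put PSMD13 at 0.01 between hcRED and Mock. Without a single library the turning values ran from -0.03 to 0.09 (NFE2L2), -0.25 to 0.31 (PSMA6), -0.05 to 0.01 (PSMD6), -0.09 to 0.07 (PSME2), -0.11 to 0.02 (PSMG3) and -0.05 to 0.02 (PSMG4) with BRSK2, from -0.32 to 0.19 (PSMA6), -0.48 to 0.22 (PSMB10), -0.02 to 0.07 (PSMB4), -0.03 to 0.03 (PSMD6) and -0.08 to 0.05 (PSMG3) with BRSK1, from -0.10 to 0.06 (PSMD1) between the kinases, and from -0.06 to 0.04 (PSMD13) and -0.07 to 0.23 (PSME2) between hcRED and Mock.

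Members with few counts were measured less precisely. With BRSK2 the SE was 0.55 for PSMB9, 0.32 for PSMA6, 0.20 for PSMA2 and 0.19 for PSMD9, against 0.06 for POMP.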
